A study of Drosophila melanogaster with 4 samples.

Results

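Linker histone H1 was mapped across the Hox gene complexes of adult fly heads, which are the 2 blocks of homeotic selector genes on the right arm of chromosome 3, 3R. The bithorax complex was taken as the window 3R 12480000 to 12810000 and the Antennapedia complex as 3R 2480000 to 2830000, in coordinates of FlyBase release 5, the build named in the file headers. Both windows were drawn around the genes, and the complexes and windows were picked with earlier results of these data known. The members are the H1-enriched regions, called clusters here, that overlap a window by at least 1 bp. In the bithorax window lay 13 clusters of replicate 1, 37 of replicate 2 and 79 of the authors' combined list. The Antennapedia window held 10, 11 and 61 clusters in the same lists. All of 3R held 773, 528 and 3587 clusters, and the full lists held 2771, 2922 and 15736.

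The series holds 4 samples of head chromatin from mixed adults of Oregon-R, a wild-type strain of the laboratory. Of these, 2 are H1 chromatin immunoprecipitations (ChIP) and 2 are input chromatin, each tied by the labels to 1 ChIP replicate. All samples share strain, genotype, stage and fixation with formaldehyde, and nothing in the labels tells if a second batch of flies was used for replicate 2, so the spread between replicates may be technical. A cluster list was used for each ChIP replicate and for the replicate set, and no list of an input sample was used. The lists give positions and 1 score per cluster but no reads, so library depth is unknown and the identity of the tissue could not be checked on marker genes.

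H1 is the linker histone that sits on the outside of the nucleosome core and helps neighbouring nucleosomes to pack. Hox genes encode homeodomain transcription factors that give body segments their identity along the head-to-tail axis, and in both complexes the order of the genes along the chromosome follows the order of the segments they act in. In cells where a Hox gene is off, Polycomb proteins keep it silent, and the bithorax complex is a textbook Polycomb domain. In the Antennapedia complex, lab (labial) acts in the head, and pb (proboscipedia) and Dfd (Deformed) form mouthparts and other head structures. Scr (Sex combs reduced) acts in the labial segment and the first segment of the thorax, and Antp (Antennapedia) in the thorax. In the bithorax complex, Ubx (Ultrabithorax) acts in the posterior thorax and the anterior abdomen, abd-A (abdominal-A) in the abdomen and Abd-B (Abdominal-B) in the most posterior segments. A head is a mixture of neurons, glia, photoreceptors, muscle, fat and other cells, and a cluster does not tell in which of them H1 was bound.

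All 8 member genes were found in a RefSeq gene table of release 6, which gave their order along 3R as lab, pb, Dfd, Scr and Antp in the first complex and Ubx, abd-A and Abd-B in the second. Between lab and Antp the table also places zen, zen2, bcd and ftz, embryonic homeobox genes that no longer act as homeotic genes in flies, and a row of Ccp84A cuticle protein genes. Between Ubx and Abd-B it places the microRNA genes mir-iab-4 and mir-iab-8, and Glut3, which encodes a sugar transporter. Coordinates of that release differ from those of the lists, so clusters were not assigned to single genes, and positions are given as distance from the left edge of a window, the edge with the lower coordinate. Coverage here means how many of the bases in a window fall inside clusters, in percent.

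The bithorax complex was densely covered with H1 clusters in replicate 2 and in the combined list, and less so in replicate 1. Clusters covered 6.44% of the bithorax window in replicate 1, against 4.61% of the rest of 3R. In replicate 2 they covered 21.9% of the window, against 2.95% of the rest of 3R, which is 7.42 times as much. The combined list covered 56.0% of the window and 23.7% of the rest of 3R. All 3 lists thus had more bases in clusters inside the complex than outside it, by 1.83 percentage points in replicate 1, 18.9 points in replicate 2 and 32.2 points in the combined list. The combined list was made from the same replicates, so it is not a further independent observation. The mean over replicates was 14.2% ± 10.9 in the window and 3.78% ± 1.17 in the rest of 3R (SD, n = 2 replicates). The difference of 10.4 points was smaller than its spread between replicates (SD 12.1). It had p = 0.5 in an exact two-sided sign-flip test over the replicates, the smallest p that 2 replicates can give.

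Set beside 80 other windows of 330 kb that tile 3R, the bithorax window ranked above 66 in replicate 1 and above all 80 in both other lists. The highest of the other windows had 12.9% (replicate 1), 11.9% (replicate 2) and 49.5% (combined list), and their medians were 4.41%, 2.38% and 24.0%. Among 354 such windows on the arms 2L, 2R, 3L, 3R and X, those of the Hox complexes left out, the bithorax window again stood above every one in the combined list and in replicate 2. The closest were a window of 2L at 14.7% in replicate 2 and a window of 3R at 49.5% in the combined list. In replicate 1, 33 of the 354 windows were at or above it. When a window of 330 kb was moved along 3R in steps of 10 kb, the position with the highest coverage of the 2758 tried in the combined list was 12480001 to 12810000, the bithorax window itself. In replicate 2 it was 12470001 to 12800000, which lies to 97.0% inside that window, and in replicate 1 it was elsewhere, at 23000001 to 23330000. These ranks describe 1 list each and are not tests. The windows were chosen with earlier results of these data known, and the moved window was added after the values were seen. The match of positions is therefore no independent find of the complex.

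**Figure D1:**
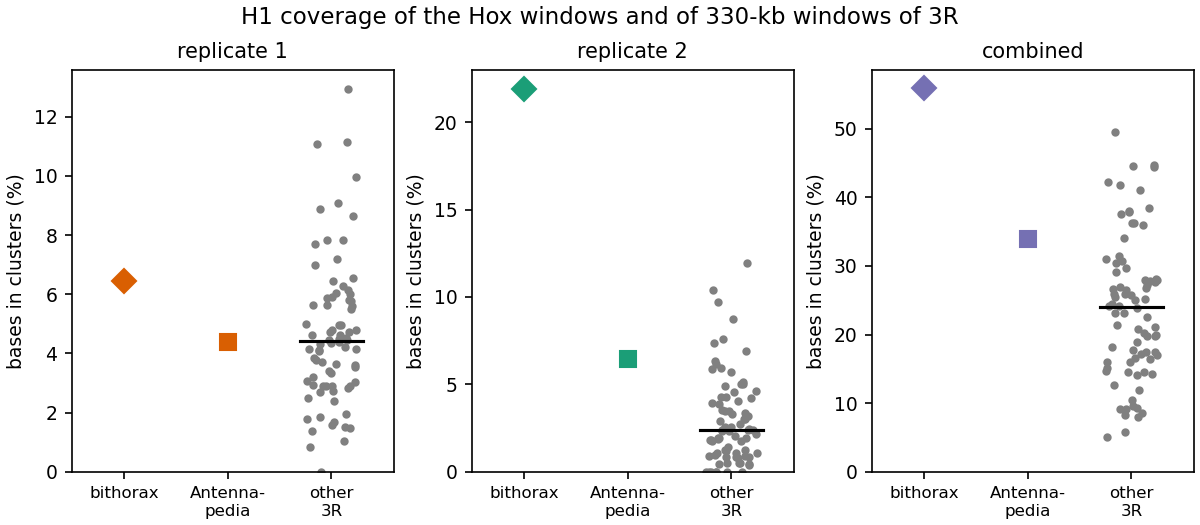
H1 coverage, as the percent of bases in clusters (vertical axis, linear, with its own scale in each panel), of the bithorax window (diamond), the Antennapedia window (square) and 80 other windows of 330 kb on 3R (grey points, line at the median), in 3 lists. The bithorax window sits above all grey points in replicate 2 (21.9%) and in the combined list (56.0%) and within their range in replicate 1 (6.44%).

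In percentage points, the replicates disagreed more on the bithorax window than on any of those 80 windows. Coverage of the bithorax window was 15.4 points higher in replicate 2 than in replicate 1, while in the other windows the same difference ran from -7.20 to 4.94 points with a median of -1.84, and only 20 of the 80 were above 0. Over the rest of 3R, coverage in replicate 2 was 0.640 times that of replicate 1, whereas over the bithorax window it was 3.40 times. As a ratio, other windows differed more. The window 11880001 to 12210000 had 7.20% in replicate 1 and 0% in replicate 2. The window 5280001 to 5610000 had 0% in replicate 1 and 0.418% in replicate 2. The cause of this difference between replicates was not tested.

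Coverage of the bithorax complex was high mainly through the number of clusters, and much less through their length. In replicate 2 the window held 11.2 clusters per 100 kb against 1.76 in the rest of 3R, a density 6.36 times as high, while the mean cluster length was 1951 bp against 1672 bp, 1.17 times as long. The combined list had 23.9 clusters per 100 kb in the window and 12.7 in the rest of 3R, with mean lengths of 2338 bp and 1873 bp. In replicate 1 the density was 3.94 against 2.75 clusters per 100 kb and the mean length 1635 bp against 1673 bp. By density the window stood above all 80 others in replicate 2 and in the combined list, and above 63 of them in replicate 1.

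H1 clusters of replicate 2 stopped close to both edges of the bithorax window. The window was chosen with earlier results of these data known, so this closeness is a description only. The first cluster began 4.16 kb inside the left edge and the last ended 18.6 kb inside the right edge. Outward from there, the next cluster lay 127 kb beyond the left edge and 199.8 kb beyond the right edge, so that the 100 kb on either side held 0 clusters. Empty stretches are common in that replicate, since 53.5% of the 542 other 50-kb stretches of 3R held none of its clusters. Its longest gap in the rest of 3R was 920015 bp. Within the window the longest stretch without a cluster in that replicate was 43587 bp. In the combined list, coverage was 56.0% inside, 15.4% in the 100 kb to the left and 4.71% in the 100 kb to the right, with 4.31 kb and 7.18 kb from the edges to the first and last cluster. In replicate 1, coverage was 6.44% inside, 3.39% in the left 100 kb and 2.56% in the right 100 kb, with 2 clusters on each side. Over flanks as long as the window the contrast was smaller in each list. Replicate 1 then had 6.44% inside and 5.11% and 6.54% in the left and right flanks, the combined list 56.0% inside and 21.6% and 31.0%, and replicate 2 21.9% inside and 1.40% and 3.56%. In replicate 1 the right flank of that length was thus covered slightly more than the complex.

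**Figure D2:**
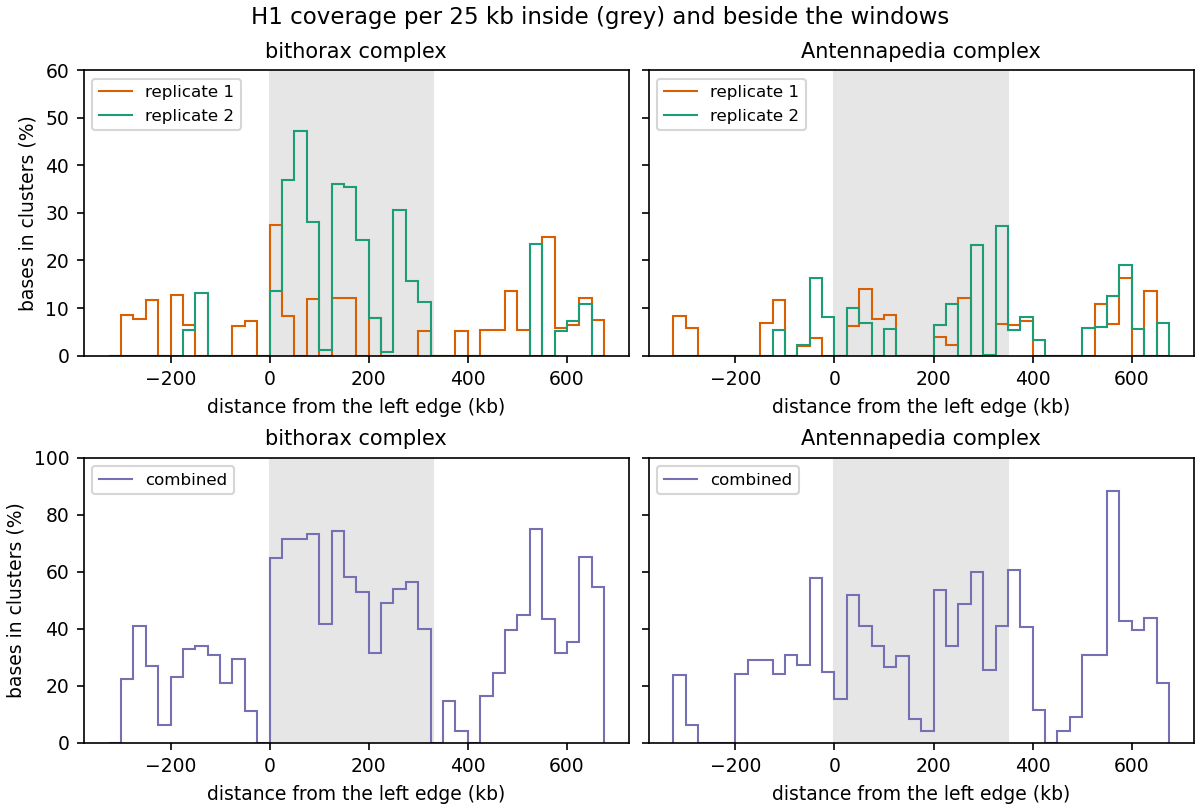
H1 coverage per 25 kb (vertical axis, percent of bases in clusters) along each window (grey) and beside it, against distance from the left edge in kb, for the replicates (upper panels) and the combined list (lower panels). Replicate 2 rises at the left edge of the bithorax window and has no cluster within 127 kb of it on the outside, whereas at the Antennapedia window clusters of replicate 2 lie 20.3 kb and 11.1 kb beyond the edges.

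Along the bithorax complex, coverage was higher in the left and middle parts than in the right part in all 3 lists. In 110-kb parts from left to right it was 10.8%, 7.28% and 1.19% in replicate 1, and 28.9%, 23.5% and 13.2% in replicate 2. The combined list had 64.1%, 58.1% and 45.7% in the same parts. By the gene order, Ubx is the first member from the left and Abd-B the last, but no boundary between genes was placed. In steps of 50 kb, the most covered step of replicate 1 was 0 to 50 kb, with 17.9% and 5 clusters, above 531 of 542 other 50-kb stretches of 3R. The most covered step of replicate 2 was 50 to 100 kb, with 37.7% and 10 clusters, above all 542. Further steps of replicate 2 had 25.3% at 0 to 50 kb, 29.9% at 150 to 200 kb and 23.1% at 250 to 300 kb, each above at least 538 of the 542. The least covered step of replicate 2 was 200 to 250 kb, with 4.25% and 2 clusters, still above the median of the other stretches, which was 0%. In replicate 1 the step of 250 to 300 kb held 0 clusters, as did 32.5% of the other stretches.

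**Figure D3:**
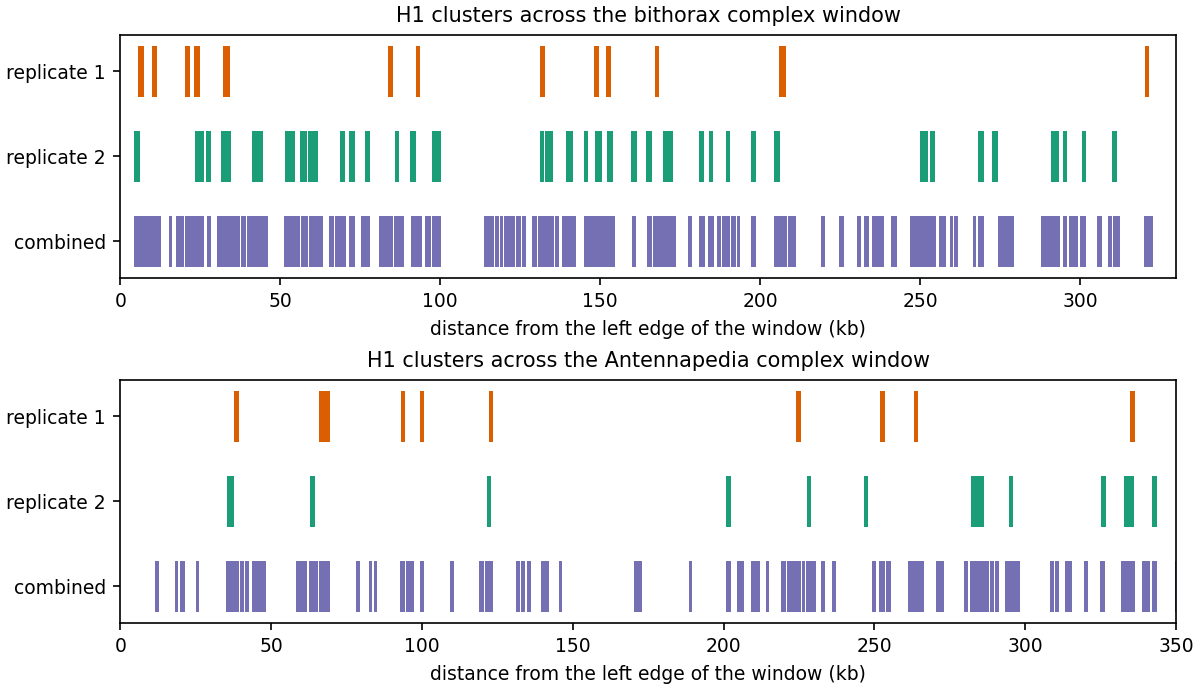
Each H1 cluster (bar, to scale) of replicate 1, replicate 2 and the combined list along the bithorax window (top) and the Antennapedia window (bottom), against distance from the left edge in kb. Replicate 2 has 37 clusters spread over most of the bithorax window, replicate 1 has 13, and both replicates leave 124 to 201 kb of the Antennapedia window free.

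Of the 13 bithorax clusters of replicate 1, 7 overlapped a cluster of replicate 2 (53.8%, 95% exact binomial interval 25.1 to 80.8), against a background of 15.4% over all clusters of replicate 1 on 3R. Replicate 2 covered 21.9% of this window and 2.95% of the rest of the arm, and the part of that difference in the overlap was not tested. Of the 37 bithorax clusters of replicate 2, 8 overlapped replicate 1 (21.6%, 9.83 to 38.2), which is close to the background of 22.7% over 3R. Bases in both lists made up 9.58% of the bases in either inside the window and 5.99% in the rest of 3R. The intervals cover counting error only, and clusters of 1 library are not independent replicates.

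The places where the replicates met in the bithorax complex were spread over the left and middle parts. The longest common stretch ran from 12512012 to 12514101 (2090 bp), which is the whole of the longest and highest-scoring cluster of replicate 1 (1.69-fold) inside a cluster of replicate 2 (1.54-fold). Fold enrichment here is 2 raised to the authors' score. Others lay at 12503434 to 12504929 (1496 bp, 1.65-fold in replicate 1 and 1.57-fold in replicate 2), at 12628269 to 12629656 (1388 bp), at 12611253 to 12612566 (1314 bp) and at 12632233 to 12633433 (1201 bp). Shorter contacts of 390 bp at 12485604, 203 bp at 12686037 and 90 bp at 12612694 completed the 8. No contact lay in the part from 220 kb rightwards, where replicate 1 had 1 cluster, at 12800274 to 12801579, and replicate 2 had 8. The longest cluster of replicate 2, at 12521199 to 12524560 (3362 bp), was also its highest-scoring one (1.71-fold), and it met no cluster of replicate 1.

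The combined list drew the bithorax complex as runs of close clusters with short gaps. Its median gap inside the window was 770 bp, against 2134 bp in the rest of 3R. The 5 longest clusters were at 12484308 to 12492549 (8242 bp, 1.38-fold), 12726975 to 12734869 (7895 bp, 1.40-fold), 12646412 to 12653766 (7355 bp, 1.43-fold), 12510244 to 12516056 (5813 bp, 1.47-fold) and 12610570 to 12615643 (5074 bp, 1.55-fold). All but the second of these overlapped a cluster of each replicate. The highest scores of the window were 1.55-fold for the last of these, 1.48-fold at 12684429 to 12688369 and 1.48-fold at 12502938 to 12506223. With neighbours at most 1 kb apart joined, the longest chain ran over 15817 bp from 12510244 to 12526060, with 5 clusters and 96.4% of its bases in them, and 19 of the 2338 chains in the rest of 3R were longer. The complex was therefore not one unbroken H1 block in this list. Its longest stretches without a cluster were 13505 bp from 12580210, 8544 bp from 12759227 and 7655 bp from 12691218. The first of these lay almost wholly inside a stretch of 30.9 kb, from 100 to 131 kb, that held no cluster of either replicate. The combined list still had 9 clusters in that stretch, covering 45.2% of it. A longer stretch without a cluster of either replicate ran over 41.8 kb from 208 kb, and the combined list covered 39.2% of it.

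The Antennapedia complex carried H1 clusters at about the level of the rest of the arm in replicate 1 and at a higher level in replicate 2. Clusters covered 4.37% of the Antennapedia window in replicate 1, against 4.61% of the rest of 3R. In replicate 2 they covered 6.44% of the window and 2.95% of the rest of 3R, and in the combined list 33.9% of the window and 23.7% of the rest of 3R. The replicates thus differed in direction, at -0.234 points in replicate 1 and 3.49 points in replicate 2. The mean over replicates was 5.41% ± 1.46 in the window and 3.78% ± 1.17 in the rest of 3R (SD, n = 2 replicates), and the exact two-sided sign-flip test gave p = 1. Of the 80 other windows of 3R, 39 were below it by replicate 1, 73 by replicate 2 and 65 by the combined list.

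At the edges of the Antennapedia window, coverage fell less sharply than at those of the bithorax window in replicate 2 and in the combined list. Coverage in replicate 1 was 4.37% inside, 2.73% in the left flank and 4.38% in the right flank of the same length. In replicate 2 it was 6.44% inside, 3.12% to the left and 6.12% to the right, and in the combined list it was 33.9% inside, 22.7% to the left and 33.1% to the right. Over flanks of 100 kb the lists differed. On the left, replicate 1 had 4.37% inside and 1.39% outside (1 cluster), while replicate 2 had 6.44% inside and 6.67% outside and the combined list 33.9% inside and 35.2% outside. On the right, coverage outside was below that inside in each list, at 3.46%, 4.22% and 28.3% outside for replicate 1, replicate 2 and the combined list.

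Both replicates left 1 long stretch in the middle of the Antennapedia window bare, though each had clusters elsewhere in its middle part. From 2603605 to 2680833, 77.2 kb that begin 124 kb from the left edge, neither replicate had a cluster, and the combined list had 9 clusters covering 14.0%. In 50-kb steps the replicates both had 0 clusters from 150 to 200 kb, where the combined list covered 6.27%, its lowest step. A step without a cluster in either replicate is common on 3R, since 23.1% of the 542 other 50-kb stretches had none. The longest gaps of the combined list were in the same area, with 23904 bp from 2626550 and 15630 bp from 2652808, and the next was 12078 bp from 2717204. By the gene order the members run from lab on the left to Antp on the right, and which of them lies beside the bare stretch was not determined.

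On both sides of the bare stretch the replicates placed their clusters differently. In 116.7-kb parts from left to right, replicate 1 had 6.63%, 2.48% and 4.01%, and replicate 2 had 3.60%, 3.73% and 11.98%. The combined list was more even, with 32.1%, 30.1% and 39.4%. The clusters of replicate 1 on the left were at 2517808 to 2519376 (1.44-fold), 2545960 to 2547457 (1.57-fold), 2547632 to 2549610 (1.58-fold), 2573065 to 2574428 (1.43-fold), 2579433 to 2580758 (1.59-fold) and 2602221 to 2603604 (1.50-fold). Those on the right were at 2704041 to 2705544 (1.61-fold), 2731840 to 2733466 (1.56-fold), 2743003 to 2744379 (1.73-fold) and 2814629 to 2816308 (1.65-fold). The third of the left ones was the longest, at 1979 bp.

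Replicate 2 had 3 clusters to the left of the bare stretch and 8 to its right. The left ones were at 2515252 to 2517752 (1.55-fold), 2542774 to 2544467 (1.51-fold) and 2601456 to 2602843 (1.41-fold). On the right were 2680834 to 2682467 (1.43-fold), 2707523 to 2708857 (1.44-fold), 2726557 to 2727916 (1.53-fold), 2761984 to 2766318 (1.53-fold), 2774560 to 2776044 (1.53-fold), 2804985 to 2806823 (1.60-fold), 2812823 to 2816148 (1.70-fold) and 2822005 to 2823640 (1.36-fold). The 1 at 2761984 was the longest at 4335 bp and the 1 at 2812823 followed with 3326 bp. All 10 clusters of replicate 1 and 10 of the 11 of replicate 2 overlapped a cluster of the combined list, which was made from the same replicates, against 94.3% and 97.9% of the clusters of replicates 1 and 2 over all of 3R.

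The replicates overlapped at 2 places in the Antennapedia complex. From 2814629 to 2816148 they had 1520 bp in common, with 1.65-fold enrichment in replicate 1 and 1.70-fold in replicate 2, the highest score of replicate 2 in the window. From 2602221 to 2602843 they had 623 bp in common, at 1.50-fold and 1.41-fold, at the left end of the bare stretch. These were 2 of 10 clusters of replicate 1 (20%, 95% exact binomial interval 2.52 to 55.6) and 2 of 11 of replicate 2 (18.2%, 2.28 to 51.8). Against the 3R backgrounds of 15.4% and 22.7%, neither share was distinguishable at these counts.

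In the combined list the longest Antennapedia clusters lay in the right part. They were at 2761646 to 2767875 (6230 bp, 1.37-fold), 2773304 to 2778263 (4960 bp, 1.37-fold) and 2811818 to 2816491 (4674 bp, 1.45-fold), followed by 2523753 to 2528398 on the left (4646 bp, 1.33-fold) and 2742432 to 2746564 (4133 bp, 1.33-fold). The cluster at 2811818 overlapped both replicates, over 35.9% of its length in replicate 1 and 71.2% in replicate 2, and had the next to highest score of the window. The highest score stood far from the others. The cluster at 2563992 to 2565018 (1027 bp) had 6.27-fold enrichment, against 1.45-fold for the next, and it overlapped no replicate cluster. It was 1 of 2 combined clusters on 3R with a score above 2. Read as a ratio of whole numbers, its score had a divisor of 2 in lowest terms, against a median of 180 in the combined list, and this divisor is known only up to a simple factor. A divisor in lowest terms is not a count of reads. Small ones also occurred at lower scores, such as 5 for the combined bithorax cluster at 12575279 to 12577071 (1.37-fold). What lies behind the 6.27-fold score was not tested.

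**Figure D4:**
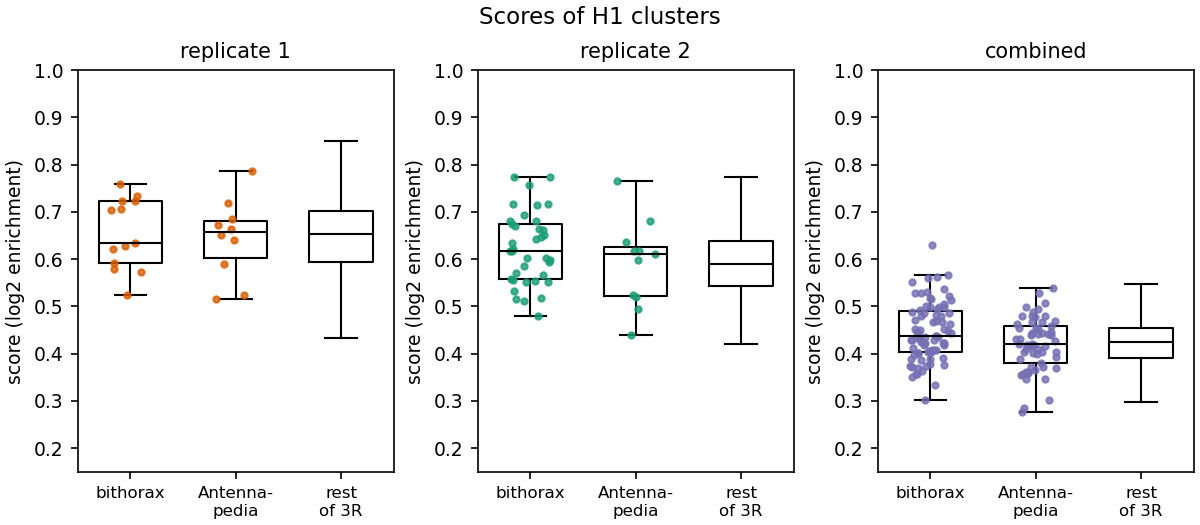
Scores (vertical axis, an unnamed field read here as log2 enrichment) of clusters in the bithorax window, the Antennapedia window and the rest of 3R, in 3 lists. Boxes show the quartiles and median, and whiskers reach to at most 1.5 times the box. Points are the clusters of the windows, while clusters of the rest of 3R beyond the whiskers are not drawn. The boxes of the windows and of the rest of 3R overlap in every panel; 1 Antennapedia cluster of the combined list, at 2.65, lies above the axis.

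Scores differed between the complexes and the rest of 3R by little in each list. Bithorax clusters had median scores of 0.63 (replicate 1), 0.62 (replicate 2) and 0.44 (combined), against 0.65, 0.59 and 0.42 in the rest of 3R, all as log2 enrichment. The difference in medians averaged 0.0035 ± 0.032 (SD, n = 2 replicates, exact two-sided sign-flip test, p = 1), with a lower median in the complex in replicate 1 and a higher one in replicate 2. For the Antennapedia window the medians were 0.66, 0.61 and 0.42 in the same lists, and the difference from the rest of 3R averaged 0.012 ± 0.011 (SD, n = 2 replicates, exact two-sided sign-flip test, p = 0.5). Bithorax clusters of replicate 1 ranged from 1.44-fold to 1.69-fold and those of replicate 2 from 1.39-fold to 1.71-fold. In the rest of 3R the ranges were 1.27-fold to 1.91-fold and 1.31-fold to 1.80-fold. Every bithorax score of either replicate thus lay within the range of the rest of 3R. That range came from 750 and 480 clusters in replicates 1 and 2, against 13 and 37 in the window. A range widens with the number of clusters, and only called clusters have scores, so this is no measure of H1 strength. By median score the bithorax window ranked above 57 of the 73 other windows of 330 kb that had a cluster in replicate 2, above 33 of 79 in replicate 1, and above 65 of 80 in the combined list. The Antennapedia window ranked above 53 of 73, 44 of 79 and 31 of 80 in the same order of lists.

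In the combined list, 40 of the 79 bithorax clusters met no replicate cluster (50.6%, 95% exact binomial interval 39.1 to 62.1), against 69.6% of all combined clusters on 3R. Replicate 2 was met by 36 of the 79 (45.6%, 34.3 to 57.2), against 13.7% on 3R. Replicate 1 was met by 12 (15.2%, 8.10 to 25.03), against 20.1% on 3R, a share that the interval holds. Split by class, 27 overlapped replicate 2 alone (34.2%, 23.9 to 45.7), against 10.3% on 3R, and 9 overlapped both (11.4%, 5.34 to 20.5), against 3.40% on 3R. The remaining 3 overlapped replicate 1 alone (3.80%, 0.790 to 10.7), against 16.7% on 3R. That class shrinks wherever replicate 2 covers more bases, since a cluster that also meets replicate 2 counts under both. It is therefore no measure of replicate 1. All 37 bithorax clusters of replicate 2 overlapped the combined list, and their density was 6.36 times that of the rest of 3R. Such a density by itself raises the shares that meet replicate 2, alone or not, and lowers the share that meets neither. These shares are therefore no separate measure of support. The 9 had a median length of 4117 bp, and the 40 that met neither had 1360 bp. In the rest of 3R these medians were 3952 bp and 1325 bp. A longer cluster more readily meets a replicate cluster by at least 1 bp, so this link of length with support is partly built into the measure.

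The Antennapedia complex was near the arm's background in each class. Of its 61 combined clusters, 2 overlapped both replicates (3.28%, 0.400 to 11.3), 7 replicate 1 alone (11.5%, 4.74 to 22.2), 8 replicate 2 alone (13.1%, 5.84 to 24.2) and 44 neither (72.1%, 59.2 to 82.9). Each of these intervals holds the share found over all of 3R. The combined list was made from the same replicates, so overlap with it is not independent evidence.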

How the data were processed

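ChIP-seq of H1 was analysed from the 3 cluster lists the authors deposited, 1 per ChIP replicate and 1 combined. Per the submitters' processing notes, the aligner was Bowtie 0.12.7. Which program called the clusters, with which thresholds, and how the combined list was made were not given in the sources used here. The score field has no name. It was read as the log2 enrichment of ChIP over input that the authors deposited per cluster, since raised as a power of 2 at least 99.9% of scores in each list were a ratio of whole numbers (divisors up to 2000, tolerance 1e-12) times 1 constant.

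Coordinates are release 5, per the file headers, and 1-based. Coverage, overlap (at least 1 bp), 330-kb tiles, 50-kb steps, gaps and flanks were computed in Python 3.11.15 with numpy 2.4.6 and scipy 1.17.1, and the interval functions were tested on simulated lists. Clusters that cross a window edge were clipped for coverage. Tiles that overlap a Hox window were left out. Unalignable bases were not removed from any window. The gene table is of release 6 and gave names and order only. Depth is unknown. Intervals are 95% exact binomial. Named clusters are all replicate clusters of a window where it has at most 12, otherwise the longest and highest-scoring, the places where replicates overlap, and the 5 longest and 3 highest-scoring combined clusters. The windows, measures and named clusters were chosen with earlier results of these data known. The best sliding window, ranks among windows of other arms, chains of clusters and 110-kb or 116.7-kb parts were added after the values were seen, as were counts of combined clusters that meet 1 replicate, alone or not.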

Additional observations from a re-analysis of the deposited data

How the results depend on the processing

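No paired analysis was possible because the input samples, which share replicate numbers with the ChIP samples, have no list used here, so ChIP could not be set against input by number. The differences between a window and the rest of 3R were taken within each replicate. Depth limits every statement on scores, since the reads behind a cluster are unknown, and the cause of each shift was not tested unless the setting itself makes the lists smaller. Of 74 alternative values, 55 kept their direction and side of the threshold or stayed within their error, 17 moved and 2 reversed. The threshold was 0.05 and the smallest p of the sign-flip test with 2 replicates is 0.5, so no value could change side. Large shifts also counted among the 55, such as the bithorax coverage difference of 1.83 points without replicate 2, against 10.4 in full. The counts are therefore no measure of robustness. Leaving out a replicate gave the bithorax coverage difference as 1.83 to 18.9 points and the Antennapedia one as -0.234 to 3.49 points, which reversed without replicate 2. The bithorax score difference ran from -0.019 to 0.026, and also reversed without replicate 2, and the Antennapedia one from 0.0041 to 0.020. Windows of 3R below the bithorax window ran from 82.5% to 100% and those below the Antennapedia window from 48.8% to 91.3%.

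With the highest-scoring 50% of each list, the Antennapedia difference in the combined list was 7.08 points (10.2 in full) and 88.8% of windows lay below it (81.3% in full). That share was 85% with tiles shifted by 165 kb, 83.0% with sliding windows, 82.7% with windows of its own length and 82.2% without 1 Mb at each end. Keeping only combined clusters as long as the shortest replicate cluster, 1301 bp, gave 8.05 points, a longest Antennapedia gap of 58.7 kb (23.9 kb in full), and 56.4% of Antennapedia and 37.7% of bithorax clusters in neither replicate. With 50% of a cluster to be covered, 0 of 11 Antennapedia clusters of replicate 2 overlapped replicate 1, or 0%. With flanks of 100 kb the combined difference from the flanks was 2.17 points for the Antennapedia window (6.01 with its own length) and 45.9 points for the bithorax window (29.6). In 25-kb steps the lowest and highest combined coverage were 4.03% and 59.8% in the Antennapedia window and 31.4% and 74.4% in the bithorax window.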
